A study of Mus musculus with 9 samples.

Results

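The Tbx2 subfamily consists of 4 T-box transcription factor genes, Tbx2, Tbx3, Tbx4 and Tbx5, which lie in the genome as the neighbouring pairs Tbx2-Tbx4 and Tbx3-Tbx5. These 4 genes were taken from the 35288 Ensembl genes counted in murine T15 cells, and they were chosen by their measured levels: Tbx4 was high in this T-cell line while its neighbour Tbx2 was almost silent. Their levels are therefore given as a description without a test, and tests are given for the responses to treatment. T15 is a cell line derived from a Smarcb1-negative mouse peripheral T-cell lymphoma (PTCL), and bulk RNA-seq of this single line was analysed in 9 libraries. Smarcb1 is a core subunit of the SWI/SNF chromatin remodeling complex. The 3 control libraries came from T15 cells labelled as control. For the 3 SAHA libraries, T15 cells received 1 µM SAHA (vorinostat), an inhibitor of histone deacetylases, in repeated doses within 72 h. For the 3 Smarcb1-RE libraries, T15 cells were transduced with the lentiviral plasmid pInd20 carrying a Smarcb1 cDNA, selected with G418 and induced with 0.5 µg/µl Doxycycline (Dox) for 72 h. The study's text calls the control cells untreated, while the labels name controls for each experiment. The labels do not say whether these 3 libraries received the vehicle of the SAHA experiment or carried the control plasmid with G418 and Dox. Transduction, selection and Dox therefore cannot be told apart from Smarcb1 wherever Smarcb1-RE is set against control. Where Smarcb1-RE is set against SAHA, the SAHA treatment differs as well, so none of these can be told apart there. All replicates came from the same line, and p-values measure the spread between these libraries. The study's methods report several stable clones after selection. The labels do not say whether the 3 Smarcb1-RE libraries came from a single clone or from several. A difference between clones therefore cannot be told apart from Smarcb1 either.

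T-box factors share a DNA-binding domain, the T-box. Tbx2 and Tbx3 are known mainly as repressors, with roles in heart conduction, limb and mammary development and in the control of cell cycle inhibitors, whereas Tbx4 and Tbx5 are known as activators, Tbx4 in the hindlimb and lung mesenchyme and Tbx5 in the forelimb, heart and lung mesenchyme. In T cells, the family members with known roles are Tbx21 (T-bet) and Eomes, which direct effector differentiation. No normal T cells were included in these libraries, so whether Tbx4 differed from its level in normal T cells was not analysed here.

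Library totals ranged from 20900424 to 24941408 estimated counts. A gene with 3 counts, used as the smallest level distinguished from 0, corresponded to 0.123 to 0.133 CPM (counts scaled to a common library size), which covers counting error only. Smarcb1 had between 2 and 13 counts in the control and SAHA libraries and 142 to 151 in the Smarcb1-RE libraries. Of 14 T cell markers, 10 exceeded 10 CPM in every library, among them Cd3e, a T cell receptor subunit, and the coreceptor gene Cd8a, while Cd2, Cd4 and Cd5 were at or under 3 counts throughout. Of the markers of other cell types, all 4 heart muscle genes were at or under 3 counts in every library, as were 6 of 11 mesenchyme or fibroblast genes, namely Col3a1, Pdgfrb, Dcn, Lum, Twist1 and Acta2. Epithelial markers summed to at most 3.49 CPM and myeloid markers to at most 0.680 CPM in any library, and B cell markers to at most 1.86 CPM in control and SAHA and 7.20 to 7.92 CPM in Smarcb1-RE.

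Because the T-box is conserved between these genes, the sequences were compared first, to see how well short reads could tell them apart. Over the aligned coding sequence, Tbx4 shared 67.8% of its bases with Tbx5, its closest relative, and 66.7% with its genomic neighbour Tbx2. The longest stretch identical between Tbx4 and Tbx5 transcripts was 23 bases, and between Tbx4 and Tbx2 it was 12 bases. Of the 3368 different words of 31 bases in Tbx4 transcripts, 13 (0.386%) also occurred in transcripts of any other gene, and 2 of these in another T-box gene. For Tbx2 the share was 0.056%, for Tbx3 1.325% and for Tbx5 1.137%. The deposited counts of Tbx4 lay within 0.001 of a whole number in every library, so the quantification left no fractional share of reads there.

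The activator Tbx4 (chromosome 11, 85886422 to 85916097, plus strand) had rounded counts of 4421, 4833 and 4839 in control, 4513, 4596 and 4743 in SAHA and 3707, 3375 and 3725 in the Smarcb1-RE libraries. Normalized by the TMM (trimmed mean of M-values) method of edgeR, these were 188, 204 and 199 CPM in control, 195, 203 and 204 CPM in SAHA and 158, 149 and 161 CPM in the Smarcb1-RE libraries. The control and SAHA libraries covered the same range, and all 3 Smarcb1-RE libraries lay below them. Tbx4 ranked between 783 and 920 among 21810 protein-coding genes by CPM per kilobase of exon, above 93.5% to 94.5% of the 14261 that exceeded 3 counts in any library. In bulk RNA, fewer cells of a type and less RNA per cell cannot be told apart, so a level here is an average over the culture.

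The repressor Tbx2 (chromosome 11, 85832551 to 85841948, plus strand), which ends 44.5 kb upstream of Tbx4, was close to the detection limit. Its counts were 5, 1 and 9 in control, 8, 8 and 7 in SAHA and 25, 20 and 24 in the Smarcb1-RE libraries. The lowest control library lay under 3 counts, and the Smarcb1-RE libraries stood above all the others. Group means were 0.208 ± 0.164, 0.334 ± 0.0283 and 0.995 ± 0.0968 CPM (SD, n = 3 each) in control, SAHA and Smarcb1-RE.

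The repressor Tbx3 (chromosome 5, 119670669 to 119684724, plus strand) was at 0 counts in the control libraries, at 1, 3 and 1 in SAHA and at 1, 0 and 1 in Smarcb1-RE. Every library was thus at or under the limit of 3 counts. Tbx5 (chromosome 5, 119832668 to 119885219, plus strand), the forelimb and heart paralog of Tbx4, had 0 counts in all 9 libraries, which allows a level of up to 0.123 to 0.133 CPM, depending on the library. Neither gene passed the filter on low counts, and neither could be tested. Tbx3 and Tbx5, separated by 147.9 kb, were therefore both silent at this depth, whereas of the pair on chromosome 11 only Tbx4 was high.

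**Figure D1:**
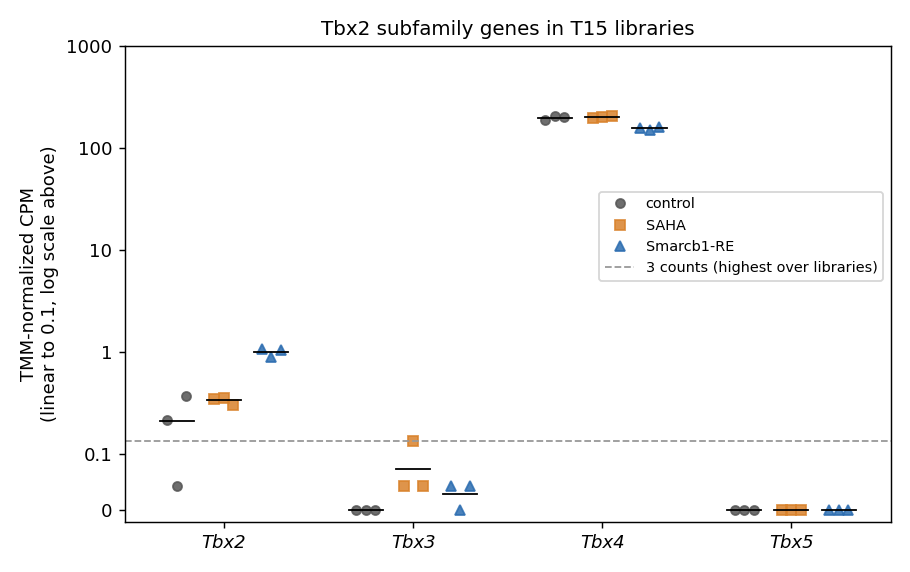
TMM-normalized CPM of the 4 Tbx2 subfamily genes (y axis, linear to 0.1 and logarithmic above) in each control, SAHA and Smarcb1-RE library, with points for libraries, short lines for group means (n = 3) and a dashed line at 3 counts in the library where these weigh most. Tbx4 lies at 149 to 204 CPM in all 9 libraries, Tbx2 at or below 1.07 CPM, and Tbx3 and Tbx5 at or under the dashed line.

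Of all counts assigned to the 4 genes, Tbx4 held 99.8% to 99.98% in control, 99.8% in SAHA and 99.3% to 99.4% in Smarcb1-RE. Per kilobase of exon, Tbx4 was at 57.9 ± 2.44, 59.1 ± 1.40 and 45.9 ± 1.73 CPM (SD, n = 3 each) and Tbx2 at 0.0574 ± 0.0452, 0.0920 ± 0.00779 and 0.274 ± 0.0267 CPM in control, SAHA and Smarcb1-RE. The ratio of these mean levels was 1009 in control, 642 in SAHA and 167 in Smarcb1-RE. The control ratio rests on the few counts of Tbx2, and within single control libraries it ran from 573 to 5153.

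The response of the subfamily was tested with edgeR's quasi-likelihood test in 1 fit to all 9 libraries and 13697 genes, with Benjamini-Hochberg adjustment. SAHA did not change Tbx4 or Tbx2 detectably. Tbx4 had a log2 fold change of 0.03 (standard error 0.04, 95% interval -0.07 to 0.12, adjusted p = 0.596), and the libraries overlapped. Tbx2 had a log2 fold change of 0.66 (standard error 0.51, 95% interval -0.45 to 1.77, adjusted p = 0.272), a wide interval for a gene of few counts. Of all tested genes, 66.9% were called in this comparison, 32.6% upwards and 34.3% downwards.

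In Smarcb1-RE, Tbx4 fell and Tbx2 rose against control. The log2 fold change of Tbx4 was -0.34 (standard error 0.04, 95% interval -0.43 to -0.24, adjusted p = 1.45e-05), a level 1.26-fold lower. The log2 fold change of Tbx2 was 2.22 (standard error 0.43, 95% interval 1.28 to 3.16, adjusted p = 4.33e-04), a level 4.66-fold higher. Neither gene's Smarcb1-RE and control libraries overlapped, and the two-sided exact permutation test gave p = 0.1 for each, the smallest that 3 libraries against 3 allow. In this comparison 77.8% of all genes were called, 39.2% upwards and 38.6% downwards, so a call by itself set neither gene apart. Tbx2 passed the filter on low counts only through its Smarcb1-RE libraries. Without the filter its log2 fold change was 2.19 (adjusted p = 2.84e-04), and without control replicate 3, the control library with most Tbx2 counts, it was 2.90.

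Set against SAHA, Smarcb1-RE showed the same directions, with log2 fold changes of -0.36 for Tbx4 (standard error 0.04, adjusted p = 7.62e-06) and 1.56 for Tbx2 (standard error 0.40, adjusted p = 0.00354), both by edgeR's quasi-likelihood test. Here 74.6% of all genes were called, 37.8% upwards and 36.8% downwards, and both comparisons use the same Smarcb1-RE libraries. The drop of Tbx4 depended in size on the scaling. With library totals in place of TMM factors the median over all genes against control moved on the log2 scale from 0.01 to 0.17. The log2 fold change of Tbx4 moved to -0.18 (adjusted p = 0.00312, edgeR's quasi-likelihood test). Tbx4 lay 0.35 below the median under either scaling. A change of factors moves all genes by nearly the same amount, so this distance is no check of the drop.

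Beside the rise of Tbx2, the summed level of the 11 mesenchyme or fibroblast markers was 66.8 to 69.0 CPM in Smarcb1-RE, against 6.63 to 9.00 CPM in control and 7.10 to 7.19 CPM in SAHA. Nearly all of it came from Pdgfra, a growth factor receptor, with 1594, 1487 and 1568 counts in Smarcb1-RE and between 133 and 214 in the other libraries. The markers Col3a1, Dcn, Lum and Pdgfrb were at or under 3 counts in the same libraries. Col1a1, also on the list, rose from 1, 5 and 0 control counts to 11 per Smarcb1-RE library. Its log2 fold change was 2.43 (adjusted p = 0.00296, edgeR's quasi-likelihood test). SAHA libraries held between 17 and 25 Col1a1 counts (log2 fold change 3.34, adjusted p = 1.76e-04, same test). Col1a1 did not pass the filter on low counts in control. The part of these markers in the result was not tested.

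Among the 17 T-box genes, Tbx4 was second only to Tbx21 in each group. Tbx21 had 5175, 5274 and 5111 counts in control, 6667, 6890 and 6970 in SAHA and 3561, 3204 and 3454 in the Smarcb1-RE libraries. Per kilobase of exon, Tbx4 reached a median of 0.67 of the level of Tbx21 in control, 0.50 in SAHA and 0.77 in Smarcb1-RE, and the ranges of the 2 genes over libraries did not overlap in any group. Tbx4 held between 33.8% and 38.7% of all T-box counts of a library. Below both came Mga, a large T-box protein that also pairs with Max, then Tbx15 and Tbx6, known from skeletal and mesoderm development, each separated from its neighbours in this order in every group. The mean levels of these 3 genes in control were 5.89, 1.94 and 1.02 CPM per kilobase, against 57.9 for Tbx4.

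Tbx2 sat among low genes whose order was not resolved. In control its range per kilobase overlapped those of Tbx1, Eomes, Tbr1, T, Tbx20 and Tbx22, and in SAHA those of Tbx1 and Eomes. In Smarcb1-RE it overlapped that of Tbx18 and lay above Tbr1, the next gene down. Tbx10 and Tbx19 were at 0 in all 9 libraries, as was Tbx5, and T (Brachyury) never exceeded 1 count. The highest counts in any library were 6 for Tbx20, 8 for Tbx22 and 8 for Tbr1, too few to be tested.

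**Figure D2:**
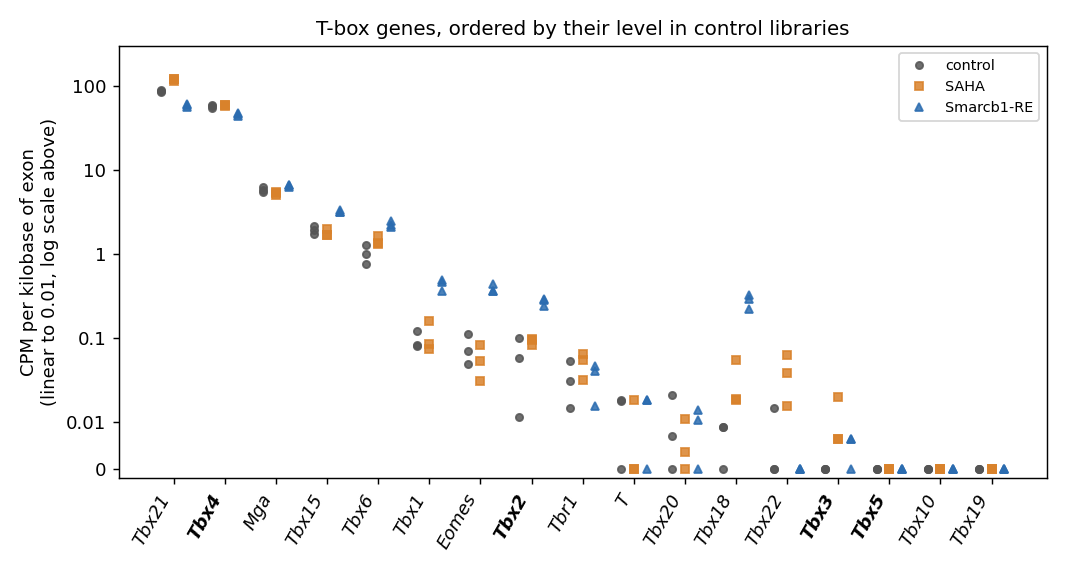
CPM per kilobase of exon (y axis, linear to 0.01 and logarithmic above) of 17 T-box genes in each control, SAHA and Smarcb1-RE library, ordered from left to right by the mean of the control libraries, with the Tbx2 subfamily in bold. Tbx21 and Tbx4 stand above all others, and Tbx3 and Tbx5 lie at the right end of the scale.

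Of the 17 T-box genes, 9 were tested, 5 of which passed the filter in every group (Tbx4, Tbx21, Mga, Tbx15 and Tbx6) and 4 only through Smarcb1-RE (Tbx2, Tbx1, Tbx18 and Eomes). In SAHA, 3 rose and 1 fell, so 4 of 9 were called against 66.9% of all genes. Tbx21 rose (log2 fold change 0.45, adjusted p = 9.73e-07, edgeR's quasi-likelihood test), which lowered Tbx4 relative to it without a change in Tbx4 itself. The other 3 calls were marginal: Tbx6 had a log2 fold change of 0.50 (adjusted p = 0.0399), Mga of -0.15 (adjusted p = 0.0279) and Tbx18 of 2.17 (adjusted p = 0.0343). Each was lost when some single libraries were left out. Tbx6 was at 0.33 without control replicate 2 (adjusted p = 0.152) and was also lost without control replicate 1, SAHA replicate 2 or 3 or any Smarcb1-RE library. Mga was at -0.09 without control replicate 3 (adjusted p = 0.139) and was also lost without control replicate 2 or SAHA replicate 2. Tbx18 was at 1.47 without SAHA replicate 1 (adjusted p = 0.226) and was also lost without control replicate 2 or 3 or Smarcb1-RE replicate 3.

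In Smarcb1-RE against control, 7 of the 9 rose and 2 fell, Tbx4 and Tbx21, against 77.8% called and 39.2% rising over all genes. The log2 fold change of Tbx21 was -0.56 (adjusted p = 7.17e-08), larger in size than that of Tbx4. Both fell from a high level. Among the genes that rose, 4 entered the test only through Smarcb1-RE, so their low level in control follows from the filter and is no result. Tbx15 went from 153, 192 and 176 counts to 281, 287 and 278 (log2 fold change 0.75, adjusted p = 1.37e-05) and Tbx6 from 43, 33 and 56 to 104, 87 and 92 (log2 fold change 1.15, adjusted p = 1.18e-04). Tbx15 and Tbx6 thus rose without overlap between the groups.

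The 4 genes that passed only through Smarcb1-RE had to be high there, so their rise is described without support from the count. Eomes, the T cell paralog of Tbx21, had 11, 7 and 5 counts in control and 43, 34 and 35 in Smarcb1-RE (log2 fold change 2.31, adjusted p = 4.07e-05). Tbx1, known from pharyngeal development, had 10, 7 and 7 counts in control and 41, 29 and 38 in Smarcb1-RE (log2 fold change 2.20, adjusted p = 3.96e-05). Tbx18, known from the epicardium and limb, had 1, 1 and 0 counts in control and 25, 35 and 32 in Smarcb1-RE, at least 10.6-fold higher against 3 counts per library. Tbx2 showed a similar size of change to Eomes and Tbx1, with overlapping intervals. Mga, finally, had a log2 fold change of 0.15 (adjusted p = 0.0253), with overlapping libraries, and its call was lost without control replicate 1 or 2, SAHA replicate 1 or 2 or Smarcb1-RE replicate 1 or 3 (log2 fold changes from 0.09 to 0.14). In Smarcb1-RE against SAHA, the same 7 genes were higher and the same 2 lower, against 74.6% called and 37.8% rising over all genes. This comparison reuses the Smarcb1-RE libraries, and 4 of the 7 genes passed the filter only through them, so it adds no support.

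**Figure D3:**
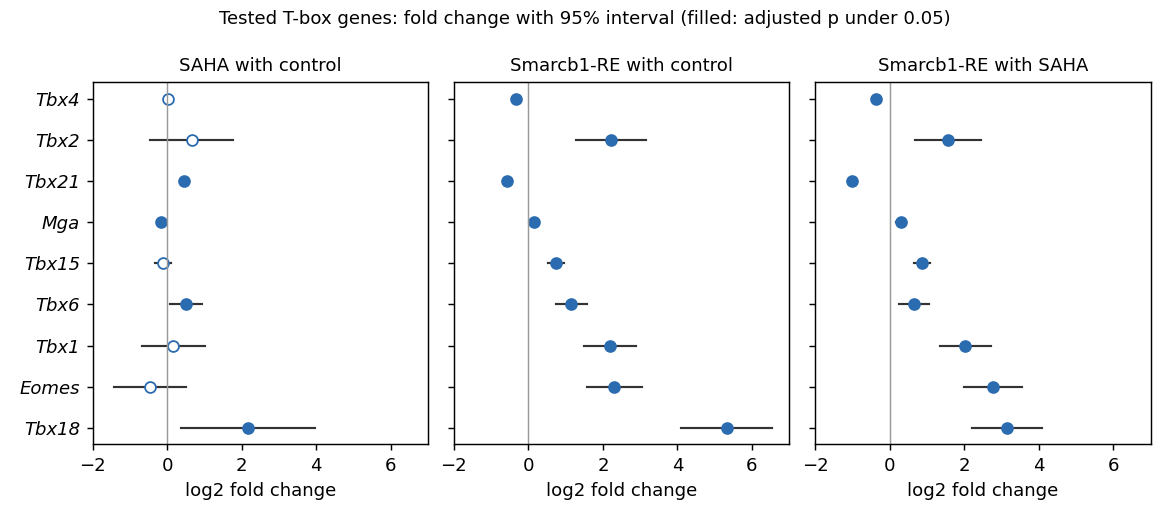
Log2 fold changes (x axis) of the 9 tested T-box genes in SAHA against control, Smarcb1-RE against control and Smarcb1-RE against SAHA, with 95% intervals from edgeR's quasi-likelihood fit as lines and filled points for an adjusted p under 0.05. Tbx4 lies at 0.03, -0.34 and -0.36 and Tbx2 at 0.66, 2.22 and 1.56, with the wider intervals of a gene of few counts.

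The protein-coding genes around the pairs were compared next. Within 500 kb of Tbx2 and Tbx4 lie 6 other protein-coding genes, and Tbx4 exceeded all of them per kilobase in each group. The closest in level was Med13, a subunit of the Mediator kinase module, at 22.2, 31.7 and 24.0 CPM per kilobase in control, SAHA and Smarcb1-RE, followed in control by Brip1, a DNA repair helicase, at 11.7. Bcas3 and Ppm1d, a phosphatase of the p53 response, lie upstream of Tbx2 and were at 5.12 and 6.26 CPM per kilobase in control. The only other gene near silence was Gm11444, which lies between Tbx2 and Tbx4, with 0, 0 and 3 counts in control, 6, 4 and 6 in SAHA and 2, 0 and 1 in the Smarcb1-RE libraries. Tbx2 and Gm11444 were thus low between Bcas3 and Tbx4, which were both transcribed. Noncoding genes of the interval were not analysed here.

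Of these 6 genes 5 were tested. In SAHA 3 rose and none fell, against 66.9% called and 32.6% rising over all genes, namely Ppm1d (log2 fold change 0.54, adjusted p = 1.47e-05), Med13 (0.51, adjusted p = 5.51e-05) and Ints2, a subunit of the Integrator complex (0.13, adjusted p = 0.045), by edgeR's quasi-likelihood test, and this count of 3 ranged from 2 to 4 with a library left out. In Smarcb1-RE against control, Bcas3 rose (0.35, adjusted p = 0.00144), Ppm1d rose with overlapping libraries (0.24, adjusted p = 0.00729) and Brip1 and Ints2 fell. Brip1 had a log2 fold change of -0.43 (adjusted p = 3.82e-06), close in size to that of Tbx4, and Ints2 one of -1.19 (adjusted p = 1.00e-09). Med13 had a value of 0.11 (adjusted p = 0.203). These 4 calls of 5 stand against 77.8% over all genes, 39.2% upwards and 38.6% downwards. In Smarcb1-RE against SAHA none of the 5 rose and 4 fell, Ppm1d among them (-0.31, adjusted p = 0.00115), against 74.6% called over all genes, while Tbx2 was higher by 1.56. Within 500 kb of Tbx3 and Tbx5 lies a single other protein-coding gene, Rbm19, an RNA-binding protein of ribosome formation, which was transcribed at 13.3 CPM per kilobase in control. It fell to 6.35 in SAHA and 5.36 in Smarcb1-RE (log2 fold changes of -1.07 and -1.31, adjusted p = 8.82e-08 and 6.25e-09), while both T-box genes beside it were silent.

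**Figure D4:**
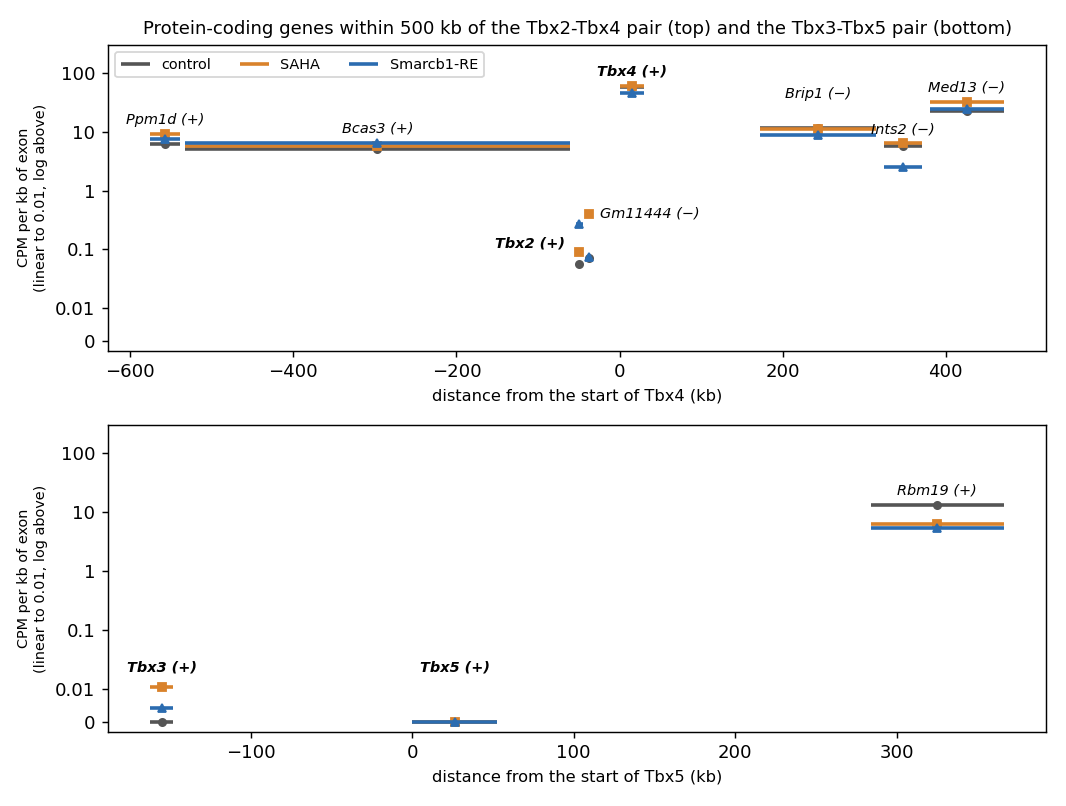
Mean CPM per kilobase of exon (y axis, linear to 0.01 and logarithmic above) of each protein-coding gene within 500 kb of the Tbx2-Tbx4 pair (top) and the Tbx3-Tbx5 pair (bottom) against the distance from the start of Tbx4 or Tbx5 in kb, with a bar over each gene's length, a point at its middle, colours for control, SAHA and Smarcb1-RE (n = 3 each) and its strand in brackets. Tbx4 is the highest gene of its interval and Tbx2 and Gm11444, just before it, are the lowest, whereas Tbx3 and Tbx5 both lie near 0 beside Rbm19.

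To see which genes that usually accompany Tbx4 and Tbx5 were present, 41 genes of limb and lung mesenchyme were examined. Of these, 21 were at or under 3 counts in every library. They included Pitx1, which acts upstream of Tbx4 in the hindlimb, with at most 2 counts, and Fgf10, a growth factor target of Tbx4 and Tbx5 in limb and lung, with at most 3 counts. Wnt2, Shh, Twist1 and Tcf21 were likewise at or under 3 counts. Tbx4 was thus high without measurable Pitx1 or Fgf10 at this depth.

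A few genes of the list were near the level of Tbx4. Hoxc10, a homeobox gene expressed in the hindlimb, had 2985, 3201 and 3278 counts in control, 3015, 2882 and 2998 in SAHA and 2125, 1925 and 2153 in the Smarcb1-RE libraries. Per kilobase this was 69.3, 67.6 and 46.9 CPM, against 57.9, 59.1 and 45.9 CPM for Tbx4. Like Tbx4, Hoxc10 had no detectable change in SAHA (log2 fold change -0.04, adjusted p = 0.47) and fell in Smarcb1-RE (-0.56, adjusted p = 9.53e-08). Foxf2, a forkhead gene of lung and gut mesenchyme, was at 39.0 CPM per kilobase in control and fell in both treatments (-0.32 and -0.27, adjusted p = 1.42e-04 and 4.27e-04). Tcf7, which is on the list for its role in the limb and is also a T cell factor, was at 107 CPM per kilobase in control.

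Of the 41 genes 15 were tested. In SAHA 8 rose and 2 fell, so 10 of 15 were called, against 66.9% of all genes (32.6% upwards, 34.3% downwards). The median log2 fold change was 0.76, against 0.00 over all tested genes. Only 11 of the 15 passed the filter in every group. Gli1 passed through SAHA alone and Lef1 through Smarcb1-RE alone, so neither their calls nor the median lend support. Gli1, a transcription factor induced by Hedgehog signalling, had 1, 0 and 1 counts in control and 15, 27 and 30 in SAHA, at least 8.30-fold higher against 3 counts per library. Ptch1, the Hedgehog receptor, rose with a log2 fold change of 1.36 (adjusted p = 1.05e-08), and the homeobox gene Meis2 with 1.35 (adjusted p = 7.17e-06). Shh, Gli2 and Gli3 were at or under 3 counts in the same libraries. Tbx4, at 0.03, was not called in this comparison.

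In Smarcb1-RE against control 7 of the 15 rose and 5 fell (median 0.69 against 0.01), so 12 of 15 were called, against 77.8% of all genes. Meis2 rose again, with a log2 fold change of 2.80 (adjusted p = 2.15e-09), and its paralog Meis1 rose by 1.82 (adjusted p = 1.73e-07). Tcf7 had 6359, 6888 and 6921 counts in control and 1050, 1105 and 1108 in Smarcb1-RE, and fell by 2.58 (adjusted p = 8.91e-13). Gli1 was at 1, 0 and 1 counts in Smarcb1-RE, as in control. Against SAHA, 4 rose and 7 fell (median 0.05 against 0.02, with 74.6% of all genes called), among them Etv5 and Etv4, ETS factors that act downstream of Fgf10, with log2 fold changes of -2.26 and -1.54 (adjusted p = 1.21e-11 and 1.39e-06).

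Of 25 heart genes that work with Tbx5, Tbx2, Tbx3 or Tbx20, 13 were at or under 3 counts in every library, including Nkx2-5, Nppa, Gja5 and Myh6, and 9 were tested. In SAHA 5 rose and 2 fell, and in Smarcb1-RE against control 5 rose and 2 fell, with medians of 0.58 and 0.96 against 0.00 and 0.01 over all genes. The 7 of 9 called in each stand against 66.9% and 77.8% of all genes. Irx5 passed the filter only through SAHA and Gja1 only through Smarcb1-RE, so neither the counts nor the medians of this list lend support. The median of 0.96 in Smarcb1-RE is the value of Irx5 itself, which was not called there. Gata4, a partner of Tbx5 in the heart, had 65, 93 and 68 counts in control, 154, 137 and 156 in SAHA and 269, 233 and 260 in the Smarcb1-RE libraries. Its log2 fold changes were 1.03 (adjusted p = 2.18e-05) and 1.80 (adjusted p = 5.02e-08), and the 3 groups did not overlap. Mef2c, another partner, rose by 0.58 and 1.09 (adjusted p = 1.85e-04 and 2.99e-07), Hand2 rose in SAHA by 0.86 (adjusted p = 0.00882), and Isl1 rose in Smarcb1-RE by 1.04 (adjusted p = 2.99e-05). Irx5 had 6, 2 and 4 counts in control and 14, 15 and 12 in SAHA, the group that brought it into the test (log2 fold change 1.79, adjusted p = 0.00195). Against SAHA, 5 rose and 3 fell in Smarcb1-RE (median 0.34 against 0.02), with 74.6% of all genes called, 37.8% upwards and 36.8% downwards. Id2, an inhibitor of helix-loop-helix factors and a Tbx5 target in the heart, was among those that fell. Its log2 fold change was -0.87 (adjusted p = 3.55e-08, edgeR's quasi-likelihood test).

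**Figure D5:**
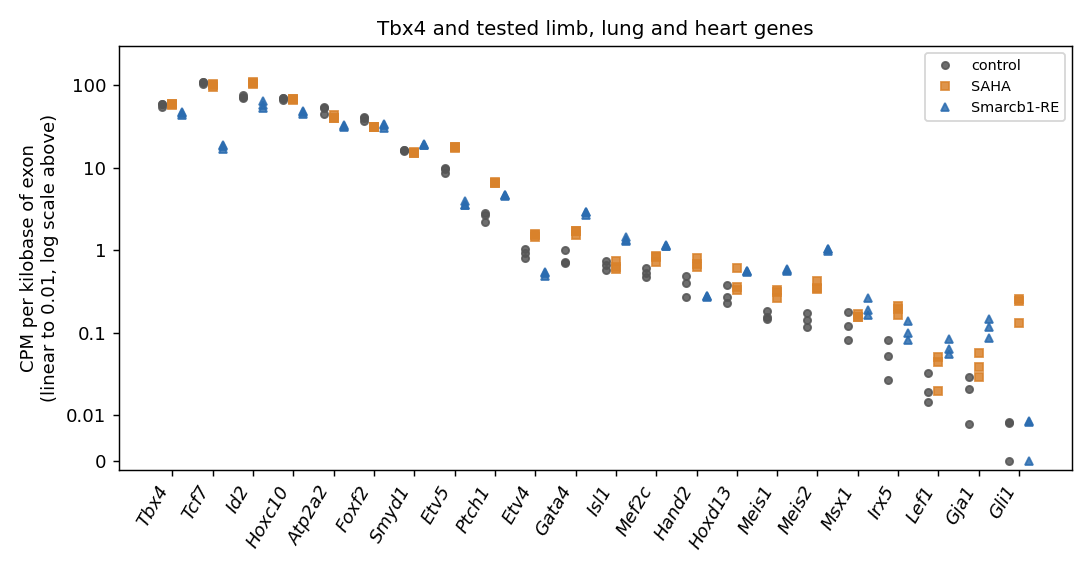
CPM per kilobase of exon (y axis, linear to 0.01 and logarithmic above) of Tbx4 and of tested limb, lung and heart genes in each control, SAHA and Smarcb1-RE library, ordered by the mean of the control libraries. Hoxc10 and Foxf2 lie near the level of Tbx4, Tcf7 falls from 107 to 18.0 in Smarcb1-RE, and Gli1 is raised only in the SAHA libraries.

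A list of 8 genes known as repressed by Tbx2 or Tbx3 was examined beside the low levels of both repressors (Gja1 and Nppa are also on the heart list). Of these 6 were tested. In SAHA 5 rose and none fell (median 0.87 against 0.00 over all tested genes). In Smarcb1-RE against control 5 rose and 1 fell (median 1.19 against 0.01). Over all genes, 66.9% were called and 32.6% rose in SAHA, and 77.8% were called and 39.2% rose in Smarcb1-RE. The counts and medians of this list include Gja1, which passed the filter only through Smarcb1-RE, so they lend no support. Cdkn1a, which encodes the cell cycle inhibitor p21, had 46, 67 and 65 counts in control, 98, 86 and 86 in SAHA and 184, 188 and 177 in the Smarcb1-RE libraries (log2 fold changes 0.65 and 1.67, adjusted p = 0.00184 and 2.20e-07). It was highest in the same libraries as Tbx2, and a link between these genes was not tested. Cdkn2b, the p15 gene, rose by 1.23 and 0.72 (adjusted p = 7.51e-04 and 0.0214), and Ndrg1, a stress-response gene, by 2.61 and 1.69 (adjusted p = 3.02e-07 and 1.28e-05). Cdkn2a, which encodes p16 and p19Arf, was high at 101 CPM per kilobase in control, rose in SAHA by 0.47 (adjusted p = 1.27e-05) and had a log2 fold change of -0.33 in Smarcb1-RE (adjusted p = 2.21e-04). Gja1, the gap junction gene connexin 43, had 7, 5 and 2 counts in control and 35, 20 and 28 in Smarcb1-RE (log2 fold change 2.58, adjusted p = 8.51e-05). Cdh1 and Nppa were too low to be tested. In Smarcb1-RE against SAHA 3 genes of the list rose and 2 fell, with a median of -0.19 against 0.02 over all genes. In that comparison 74.6% of all genes were called, 37.8% upwards and 36.8% downwards.

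Of 12 genes that encode binding partners of the subfamily, 9 were tested and passed the filter in every group, while Nkx2-5, Sall4 and Wwtr1 (Taz) were at or under 3 counts. In SAHA 8 rose and 1 fell (median 0.58), against 66.9% called over all genes, 32.6% upwards and 34.3% downwards. Egr1, a partner of Tbx2, rose by 1.34 (adjusted p = 1.45e-09), Pdlim7, which binds Tbx4 and Tbx5, by 0.91 (adjusted p = 9.35e-07) and Rb1 by 0.70 (adjusted p = 2.35e-07). Hdac1 and Chd4 encode chromatin partners, a histone deacetylase and the remodeling subunit of the NuRD complex. In SAHA they rose by 0.54 (adjusted p = 8.92e-08) and 0.36 (adjusted p = 4.80e-06), while Hdac2 had a log2 fold change of -0.14 (adjusted p = 0.00512). In Smarcb1-RE against control 4 rose and 4 fell (median -0.02), against 77.8% called over all genes. Gata4, Mef2c, Pdlim7 (0.72, adjusted p = 5.25e-06) and Rb1 (0.79, adjusted p = 2.85e-08) rose, and Hdac1 (-0.32, adjusted p = 6.08e-06), Hdac2 (-0.57, adjusted p = 1.76e-08), Chd4 (-0.27, adjusted p = 5.23e-05) and Egr1 (-0.44, adjusted p = 9.51e-06) fell. Yap1 had a log2 fold change of -0.02 (adjusted p = 0.578). Against SAHA 2 rose and 6 fell, with a median of -0.36 and 74.6% of all genes called.

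The genes whose log2 CPM over the 9 libraries followed that of Tbx4 most closely were Smurf2, a ubiquitin ligase (Pearson's r = 0.993), Dag1, which encodes dystroglycan (0.991), Slc10a3 (0.991), Bcl9l, a cofactor of beta-catenin (0.990), and Clint1, an adaptor of vesicle transport (0.989). All 5 were lower in Smarcb1-RE than in control, by 0.54, 0.57, 0.71, 1.02 and 0.72 on the log2 scale, each more than Tbx4. Among the 10710 genes compared, 1363 had a coefficient above 0.9, so such a likeness was common. The 9 points form 3 groups and share library and depth, and the coefficients are given as a description. By Spearman's rank correlation the leading 5 genes were others, with 0 of 5 in common.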

How the data were processed

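Bulk RNA-seq libraries were prepared from total RNA of T15 cells with a strand-specific kit, and single-end reads were obtained. The authors deposited 1 table of estimated counts per Ensembl gene and library (35288 genes, 9 libraries), neither normalized nor pooled. Of the values above 0, 52.4% had a fraction. The submitters' processing notes name Salmon 0.14.1, DESeq2 1.22.2, FastQC 0.11.8, MultiQC 1.7 and the GRCm38 build. The annotation and strand setting are not given in the sources used here. Gene names, exon lengths and coordinates came from GENCODE M21 (GRCm38), in which 99.3% of the identifiers, with 99.9% of the counts, were found.

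Counts were rounded and analysed in R 4.3.3 with edgeR 4.0.16 (TMM factors, filterByExpr at a minimum of 10 counts, the quasi-likelihood fit and F test of glmQLFit and glmQLFTest, and Benjamini-Hochberg adjustment over 13697 genes with a threshold of 0.05). All 3 groups entered a single fit. A standard error is the size of the log2 fold change over the root of its F value. Levels between genes are TMM-normalized CPM divided by kilobases of merged exons. Fold bounds use 3 counts per library. Likeness to Tbx4 was computed for genes whose mean log2 CPM reached 1. The named genes are the subfamily, the other T-box genes, protein-coding genes within 500 kb, the 5 genes most like Tbx4 and, per list and comparison, up to 4 called genes that changed most. Further list genes were named after their values were seen, and 1 list gene and 1 sequence comparison are not reported here. The members and lists were chosen with earlier results of these data known. No replicate pair agreed within sampling noise (chi-square per gene from 2.12 to 15.0). Control replicate 1 differed most, with 13.4 and 15.0 against control replicates 2 and 3, while all other pairs were at most 4.69. The calculations were tested on simulated data. Alternatives were DESeq2 1.42.0, median-ratio factors, library totals, other filters, separate fits, a replicate block, a size limit of 1 on the log2 scale, each library left out, longest-transcript lengths, a window of 1000 kb and Spearman's correlation.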

Additional observations from a re-analysis of the deposited data

How the results depend on the processing

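Tbx4 and Tbx2 kept the direction and call of both Smarcb1-RE comparisons under DESeq2, other scalings, no filter, separate fits and each library left out. When calls also needed a log2 change of at least 1 in size, the calls of Tbx4 (-0.34 against control, -0.36 against SAHA) were lost, and the called genes fell to 1672 in SAHA against control (from 9164), 3237 in Smarcb1-RE against control (from 10653) and 2706 in Smarcb1-RE against SAHA (from 10213). With single libraries left out, the SAHA value on the log2 scale lay between -0.0068 and 0.0519 for Tbx4, turning negative without control replicate 1, and between 0.19 and 1.35 for Tbx2, never called. Against control in Smarcb1-RE, it ranged from -0.38 to -0.31 for Tbx4 and from 1.73 to 2.90 for Tbx2, and against SAHA from -0.40 to -0.34 and from 1.49 to 1.64. Tbx1, not called in SAHA (0.16), ranged from -0.24 (without SAHA replicate 1) to 0.36. In SAHA, 1 to 3 T-box genes were called with a library left out, 2 with DESeq2 and 1 in a separate fit, against 4. Library totals put the share of upward calls at 61.0% in place of 50.4% in Smarcb1-RE against control and 62.1% in place of 50.6% against SAHA. Scaled to the longest transcript, Tbx4 was at 62.5, 63.7 and 49.5 CPM per kilobase in control, SAHA and Smarcb1-RE, and by library totals at 56.9 in SAHA and 49.3 in Smarcb1-RE. Replicate numbers in the titles recur between groups, but same-numbered libraries did not deviate together (9 correlations from -0.072 to 0.037). The labels state no pairing, and these correlations cannot exclude one. With the replicate block, the called genes were 9030, 10590 and 10137, and the log2 fold changes were 0.03, -0.34 and -0.36 for Tbx4 and 0.69, 2.25 and 1.56 for Tbx2, with Tbx18 in SAHA (2.17, adjusted p = 0.0562 by edgeR) the T-box call lost. With at least 10 counts in every library, and in a fit to SAHA and control alone, Tbx2 was not retained and gave no value. Within 1000 kb of Tbx2 and Tbx4, 10 of 18 tested genes rose and 1 fell in SAHA, 5 rose and 8 fell in Smarcb1-RE against control, and 1 rose and 14 fell in Smarcb1-RE against SAHA, with 66.9%, 77.8% and 74.6% of all genes called. The cause of these shifts was not tested. Depth limits Tbx2, Tbx3 and Tbx5, where a few reads decide the value.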
